A study of Mus musculus with 24 samples.

Results

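The 7 genes Gabra2, Gabra3, Gabra4, Gabra5, Gabrb1, Gabrb2 and Gabrd encode subunits of the GABA-A receptor and were taken by name from the 37289 genes of the RNA tables. All 7 were matched to an Ensembl gene and all 7 passed the filter on low counts, as did 15955 genes in all. RNA was measured by sequencing in striatum punched from the brains of 12 female C57BL/6 mice. The 4 groups of 3 mice were Cntnap2 heterozygous (het) stressed, wild-type stressed, het control and wild-type control. Stressed mice were born to dams that went through 7 days of variable stress from embryonic day 12.5, and these dams carried embryos of both genotypes, per the labels. Cntnap2 encodes the neuronal adhesion protein Caspr2. The sources used here do not give the age at tissue collection. The labels do not name litters, so the p-values reflect only how these mice differed.

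The GABA-A receptor is a ring of subunits around a chloride channel and carries most fast inhibition in the brain. Alpha and beta subunits form the GABA binding sites. Receptors with a gamma subunit gather at synapses, whereas receptors that hold the delta subunit, mostly with alpha4 in the forebrain, lie outside synapses and respond to ambient GABA with a lasting, tonic current. Most striatal neurons are GABAergic spiny projection neurons, and the receptor sets how readily they fire.

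The libraries held 13587154 to 24039706 expected counts, and all het libraries (21410135 to 24039706) were deeper than all wild-type libraries (13587154 to 18538304), so depth and genotype cannot be told apart. The 12 spiny neuron markers summed to 3919 to 8903 TPM (transcripts scaled to a fixed library sum) per library and none was at 0, which fits the labelled striatum. Markers of other regions varied. The summed 9 markers of cortical excitatory neurons were 19.9 to 171 TPM and the summed 8 thalamus markers were 33.8 to 48.2 TPM in het stressed mice, 28.2 to 37.7 TPM in wild-type stressed mice, 27.7 to 36.6 TPM in het control mice and 46.8, 55.5 and 142 TPM in wild-type control mice. The thalamus sums of wild-type control mice thus lay above those of all wild-type stressed and all het control mice. Some libraries stand apart from their labels or their group. The RNA data of het control replicate 1 carry another animal number than the label. Wild-type stressed replicate 2, labelled female, had 1.32 TPM of Xist, the RNA of the inactive X chromosome, against 23.1 to 109 TPM in the other 11 libraries. Libraries also differed in how read counts depended on gene length. A length slope was computed for each library as the slope, over the genes tested, of a gene's log2 CPM (counts scaled to a fixed library sum), less its mean over libraries, on the log2 of its length. It was lowest in het control replicate 1 (-0.37) and wild-type control replicate 1 (-0.30) and highest in replicate 3 of the wild-type stressed (0.29) and wild-type control mice (0.28). In bulk tissue, fewer cells of a type and less RNA per cell cannot be told apart.

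The delta subunit gene was the most abundant of the 7 and the beta1 gene the least. On the TPM scale, which is per length and so allows genes to be compared, Gabrd averaged 141.6 ± 18.1 TPM over the 12 libraries (SD) and Gabra4 averaged 82.5 ± 11.6 TPM. The others followed at 26.2 ± 10.2 TPM for Gabrb2, 23.4 ± 5.06 TPM for Gabra3, 19.5 ± 4.02 TPM for Gabra5, 14.0 ± 5.47 TPM for Gabra2 and 6.39 ± 2.82 TPM for Gabrb1. Gabrd stood above Gabra4, Gabra4 above Gabrb2, and Gabra2 above Gabrb1 in 12 of 12 libraries each. Gabra3 stood above Gabra5 in 11 of 12 libraries and Gabra5 above Gabra2 in 9 of 12. Gabrb2 stood above Gabra3 in 7 of 12 libraries only, so the order of those neighbours does not exceed the spread between mice. FPKM gave the same order of means.

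**Figure D1:**
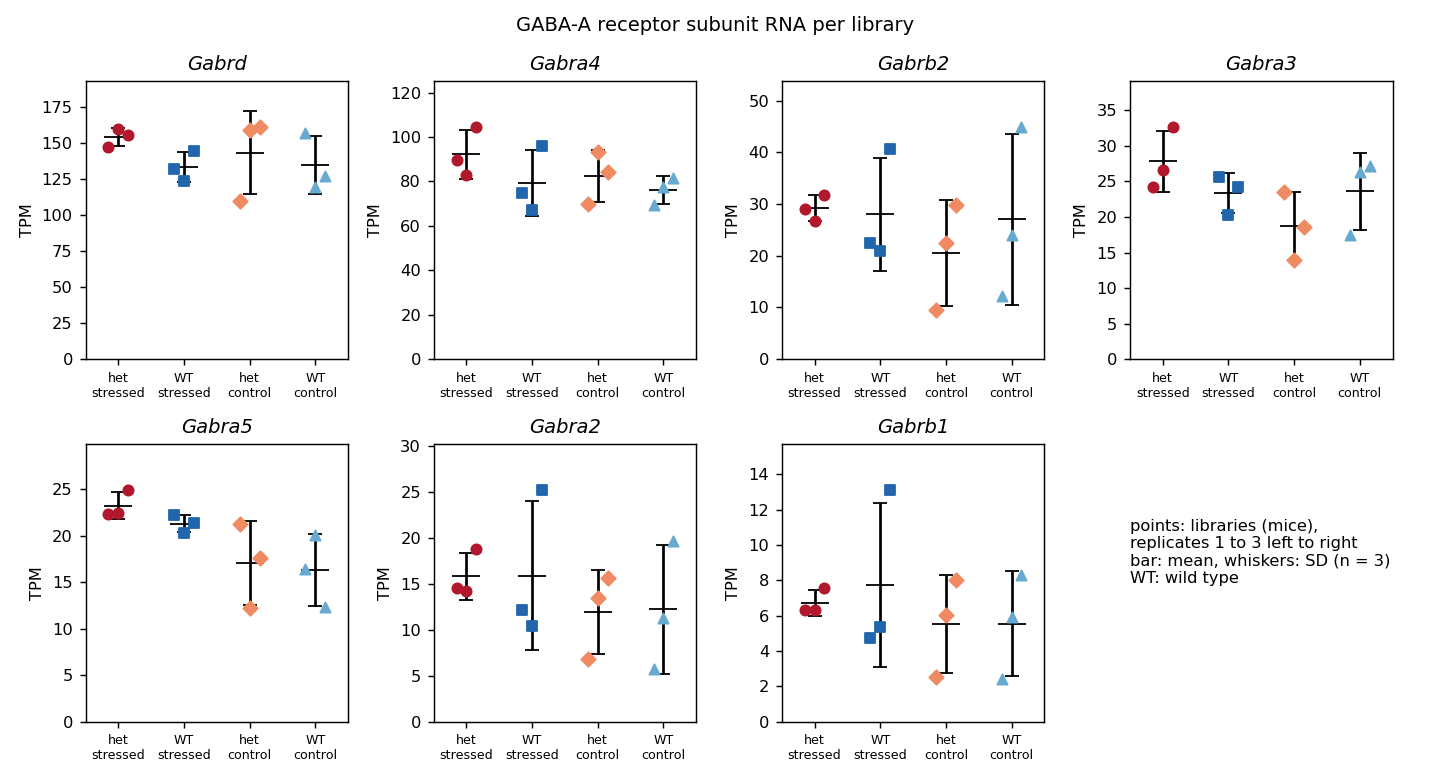
TPM of each of the 7 subunit genes (y axis, from 0) in every library (points, replicates 1 to 3 from left to right) of the 4 groups, with the mean and the SD (n = 3). Gabrd lies between 110 and 161 TPM and Gabrb1 between 2.43 and 13.1 TPM, and for Gabra2, Gabrb1 and Gabrb2 single libraries of a group are several times higher or lower than others of it.

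Gabrd, which encodes the delta subunit of extrasynaptic receptors and lies on chromosome 4, varied little between mice in TPM. The highest library was 1.46 times the lowest. It had 148, 160 and 156 TPM in het stressed mice, 132, 124 and 145 TPM in wild-type stressed mice, 110, 159 and 161 TPM in het control mice, and 157, 120 and 127 TPM in wild-type control mice. Het stressed mice were thus all above wild-type stressed mice on this scale, whereas the control groups overlapped with both. On CPM scaled by TMM (trimmed mean of M values, a correction for library composition) the same libraries overlapped, with 186, 199 and 180 CPM in het stressed mice and 191, 184 and 157 CPM in wild-type stressed mice. The control mice had 212, 211 and 190 CPM (het) and 257, 167 and 143 CPM (wild type). Both the highest and the lowest library in CPM were thus wild-type controls. Het control replicate 1, the lowest in TPM, was among the highest in CPM.

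Gabra4, on chromosome 5, encodes the alpha4 subunit, the usual partner of delta in the forebrain. It had 89.6, 82.8 and 104 TPM in het stressed mice, 74.7, 66.99 and 95.9 TPM in wild-type stressed mice, 70.0, 93.4 and 84.1 TPM in het control mice, and 69.3, 77.7 and 81.7 TPM in wild-type control mice. The groups overlapped, except that het stressed mice all stood above wild-type control mice in TPM. Gabra4 was the steadiest of the 7 in log2 CPM, with an SD within groups of 0.15, and 14.1% of the genes tested had a smaller one.

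Gabra2 encodes alpha2, a synaptic subunit known as a target through which benzodiazepines reduce anxiety in mice. It had 14.5, 14.2 and 18.8 TPM in het stressed mice, 12.1, 10.4 and 25.2 TPM in wild-type stressed mice, 6.79, 13.4 and 15.6 TPM in het control mice, and 5.71, 11.3 and 19.7 TPM in wild-type control mice. The highest library was 4.41 times the lowest, both were wild type, and all groups overlapped.

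Gabrb1 and Gabrb2 encode beta subunits, which form part of the GABA binding site. Gabrb1 had 6.32, 6.30 and 7.58 TPM in het stressed mice, 4.76, 5.37 and 13.1 TPM in wild-type stressed mice, 2.51, 6.03 and 8.0 TPM in het control mice, and 2.43, 5.90 and 8.33 TPM in wild-type control mice. Gabrb2 had 29.1, 26.7 and 31.7 TPM in het stressed mice, 22.5, 20.9 and 40.6 TPM in wild-type stressed mice, 9.54, 22.4 and 29.8 TPM in het control mice, and 12.2, 24.0 and 44.8 TPM in wild-type control mice. For both genes the low libraries were replicate 1 of either control group and a high library was wild-type stressed replicate 3. Each group's range overlapped every other's. The ratio of the highest to the lowest library was 5.40 for Gabrb1 and 4.70 for Gabrb2.

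Gabra3 and Gabra5 encode alpha3 and alpha5. Alpha5 is best known from extrasynaptic receptors of hippocampal pyramidal cells, and Gabra3 lies on the X chromosome. Gabra3 had 24.3, 26.6 and 32.6 TPM in het stressed mice, 25.6, 20.3 and 24.3 TPM in wild-type stressed mice, 23.5, 13.9 and 18.6 TPM in het control mice, and 17.4, 26.3 and 27.1 TPM in wild-type control mice. Gabra5 had 22.4, 22.4 and 24.9 TPM in het stressed mice, 22.2, 20.3 and 21.4 TPM in wild-type stressed mice, 21.3, 12.3 and 17.6 TPM in het control mice, and 16.4, 20.1 and 12.4 TPM in wild-type control mice. Het stressed mice were above het control mice in TPM for both genes without overlap. For Gabra5 they were also above wild-type stressed mice and above wild-type control mice, and wild-type stressed mice were above wild-type control mice. The Gabra3 value of the library with low Xist, 20.3 TPM, lay within the range of the others, and without that library edgeR gave Gabra3 a log2 fold change of -0.030 for het over wild-type mice and 0.095 for stressed over control mice, averaged over the other factor (adjusted p = 0.99995 and 0.929).

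These separations in TPM did not hold on TMM-scaled CPM. In CPM Gabra5 had 39.3, 38.5 and 40.4 in het stressed mice, 45.4, 41.2 and 32.3 in wild-type stressed mice, 56.3, 22.9 and 29.7 in het control mice, and 37.1, 39.02 and 19.2 in wild-type control mice, so all groups overlapped. The TPM scale itself moved between groups: the median of all genes tested, in log2(TPM + 1), was 0.10 higher in het stressed than in wild-type stressed mice, 0.21 higher in het stressed than in het control mice and 0.14 higher in het stressed than in wild-type control mice, while on the CPM scale these medians were 0.011, 0.021 and 0.018. Of all genes tested, 9.11% did not overlap in TPM between het stressed and wild-type stressed mice, where 2 of 7 subunits did not (Gabra5 and Gabrd). In het stressed against het control mice this was 15.4% of genes and 2 of 7 subunits (Gabra3 and Gabra5). In het stressed against wild-type control mice it was 9.21% of genes and 2 of 7 subunits (Gabra4 and Gabra5), and in wild-type stressed against wild-type control mice 4.65% of genes and 1 of 7 subunits (Gabra5). It was 0 of 7 subunits, against 3.17% of genes, for het control and wild-type control mice, 0 of 7 against 0.0689% for all het and all wild-type mice, and 0 of 7 against 0.157% for all stressed and all control mice. The tests below therefore rest on counts scaled by TMM.

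Prenatal stress and the Cntnap2 genotype were compared by edgeR's quasi-likelihood test over all genes, called at a Benjamini-Hochberg adjusted p of 0.05. The comparisons share groups, so their values are not independent. No subunit gene passed in any of the 8 comparisons, DESeq2 also called 0 of 7 in each, and every adjusted p of the 7 genes was 0.975 or higher. Averaged over both prenatal conditions, the log2 fold change of het over wild-type mice was 0.16 ± 0.10 for Gabra4 (SE, here and below), 0.10 ± 0.14 for Gabrd, 0.092 ± 0.23 for Gabra5, 0.011 ± 0.22 for Gabra2, -0.013 ± 0.20 for Gabra3, -0.085 ± 0.26 for Gabrb1 and -0.14 ± 0.22 for Gabrb2. The 95% interval of Gabra4, the narrowest, ran from -0.068 to 0.39. That of Gabrb1, the widest, ran from -0.65 to 0.48, a fold change of 0.637 to 1.40. The test called 0 of 7 members, as against 0.00627% of all genes, 0 of 7 had an unadjusted p under 0.05, as against 0.708%, and the het and wild-type libraries of 0 of 7 did not overlap in CPM, as against 0.0752%.

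Averaged over both genotypes, the log2 fold change of stressed over control mice was 0.29 ± 0.22 for Gabra2, 0.28 ± 0.26 for Gabrb1, 0.22 ± 0.23 for Gabra5, 0.16 ± 0.22 for Gabrb2, 0.076 ± 0.20 for Gabra3, -0.049 ± 0.10 for Gabra4 and -0.10 ± 0.14 for Gabrd. None exceeded the spread between mice. The 4 largest depended on single libraries. Gabra2 was 0.14 when wild-type stressed replicate 3 was left out and 0.44 when wild-type control replicate 3 was. Gabrb1 was 0.084 without wild-type stressed replicate 3 and 0.40 without het control replicate 3. Gabra5 was 0.080 without wild-type control replicate 3 and 0.45 without het control replicate 1, and Gabrb2 was 0.026 without wild-type control replicate 1 and 0.33 without wild-type control replicate 3. The 95% interval was -0.28 to 0.18 for Gabra4, -0.41 to 0.20 for Gabrd and -0.19 to 0.76 for Gabra2. As fold changes of stressed over control mice, these intervals ran from 0.826 to 1.13, from 0.752 to 1.15 and from 0.874 to 1.70. By edgeR 0 of 7 members were called, as against 0% of all genes, 0 of 7 had an unadjusted p under 0.05, as against 2.34%, and 0 of 7 did not overlap in CPM, as against 0.175%. The median of the 7 was 0.16 and that of all genes tested was -0.0005.

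**Figure D2:**
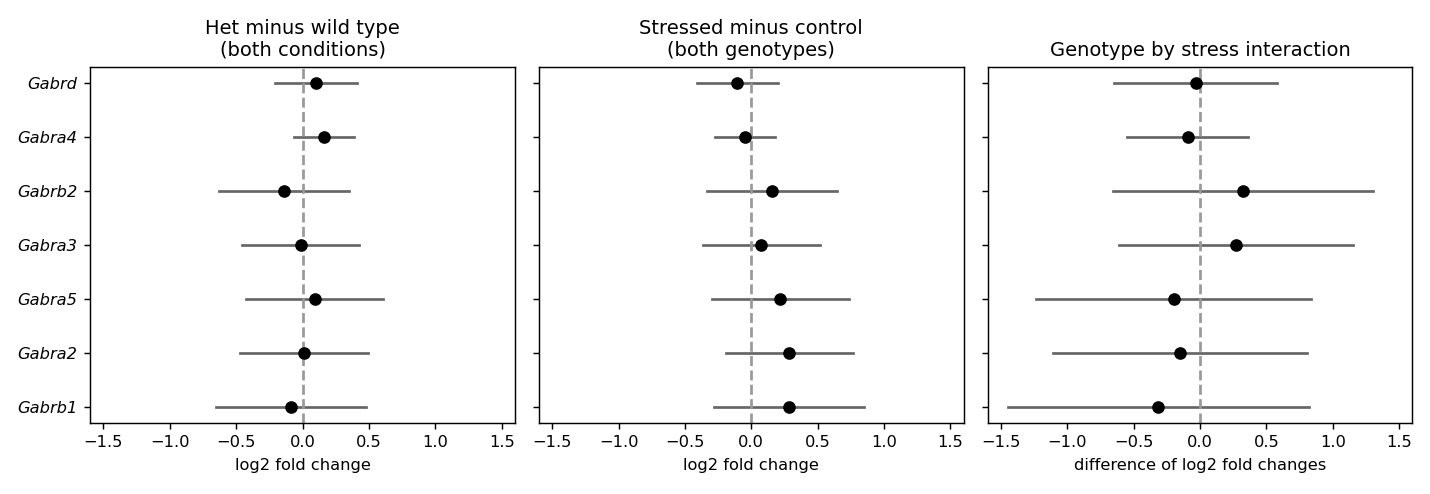
Log2 fold change (x axis) of each subunit gene for het minus wild-type mice averaged over prenatal condition (left), stressed minus control mice averaged over genotype (middle), and the difference between het and wild-type mice in the effect of stress (right). Points are edgeR estimates over 12 libraries and lines their 95% intervals. Every interval includes 0, and those of Gabra4 are the narrowest.

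The interaction asks whether prenatal stress acted differently in het and in wild-type mice. The difference between the log2 fold changes ran from -0.31 ± 0.51 for Gabrb1 to 0.32 ± 0.44 for Gabrb2. The test called 0 of 7 (0% of all genes), and 0 of 7 had an unadjusted p under 0.05 (1.33% of all genes).

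Among prenatally stressed mice, the log2 fold change of het over wild type ran from -0.24 ± 0.36 for Gabrb1 to 0.12 ± 0.28 for Gabra3. By edgeR 0 of 7 were called (0.00627% of all genes), 0 of 7 had an unadjusted p under 0.05 (0.57%) and 0 of 7 did not overlap in CPM (5.19%).

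Prenatal stress in het mice gave log2 fold changes from -0.12 ± 0.20 for Gabrd to 0.32 ± 0.31 for Gabrb2. The edgeR test called 0 of 7 (0% of all genes), 0 of 7 had an unadjusted p under 0.05 (1.12%) and 0 of 7 did not overlap in CPM (6.68%). In wild-type mice, stressed over control values ran from -0.089 ± 0.20 for Gabrd to 0.44 ± 0.36 for Gabrb1. Here too 0 of 7 were called (0% of all genes), 0 of 7 had an unadjusted p under 0.05 (2.49%) and 0 of 7 did not overlap in CPM (5.79%). No marker of another cell type was called between these wild-type groups, but their values were uneven. Of the 8 thalamus markers, 8 had negative log2 fold changes, 4 at an unadjusted p under 0.05 (median -0.80), and of 10 oligodendrocyte markers 10 were negative, 8 at an unadjusted p under 0.05 (median -0.50). The 6 markers of ependyma and choroid plexus summed to 5.38 to 22.1 TPM in wild-type stressed mice and 299 to 576 TPM in wild-type control mice. In the control mice most of this sum was Ttr, with 0.90 to 11.4 TPM in stressed and 290 to 556 TPM in control mice. Kcne2 and Folr1 were also lower in wild-type stressed mice without overlap. Clic6, Hydin and Dnah11 overlapped between these groups. The part of all these markers in the subunit values was not tested.

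Mice with both factors were also set against mice with neither. The log2 fold change of het stressed over wild-type control mice ran from -0.0043 ± 0.20 for Gabrd to 0.31 ± 0.33 for Gabra5. By edgeR 0 of 7 were called (0.00627% of all genes), 0 of 7 had an unadjusted p under 0.05 (1.28%) and 0 of 7 did not overlap in CPM (6.31%). Here too the log2 fold changes of 8 of 8 thalamus markers were negative, 4 at an unadjusted p under 0.05 (median -0.84), and their part was not tested.

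Among unstressed mice, het over wild-type values were 0.21 ± 0.15 for Gabra4, 0.19 ± 0.33 for Gabra5, 0.12 ± 0.20 for Gabrd, 0.086 ± 0.31 for Gabra2, 0.071 ± 0.36 for Gabrb1, -0.15 ± 0.28 for Gabra3 and -0.31 ± 0.31 for Gabrb2 on the log2 scale. By edgeR 0 of 7 were called (0.00627% of all genes), 0 of 7 had an unadjusted p under 0.05 (1.47%) and 0 of 7 did not overlap in CPM (3.38%). This was the comparison in which the count of subunits called depended on the method. A limma-voom fit that weights libraries by their quality called 2 of 7 with 6.19% of all genes called: Gabra3 with -0.85 ± 0.14 (adjusted p = 0.0143) and Gabra5 with -0.60 ± 0.15 (adjusted p = 0.0396). It gave the lowest weight of all libraries, 0.125, to het control replicate 1. That library had the highest CPM of both genes (86.0 for Gabra3 and 56.3 for Gabra5). Without it, edgeR gave -0.62 for Gabra3 and -0.28 for Gabra5, with adjusted p = 0.94 for each. The highest weight, 6.76, went to wild-type control replicate 2, the highest of its group in CPM of both genes (71.1 and 39.02). Replicates 1 and 3 of that group had weights of 0.275 and 0.254. The wild-type side of these limma-voom calls thus rests mostly on 1 library. An edgeR fit that took the length slope as covariate and left out replicate 1 of both control groups called 1 of 7 (1.22% of all genes), Gabrd with 0.36 ± 0.068 (adjusted p = 0.0335). This call depended on leaving those libraries out. With the covariate and all 12 libraries, edgeR gave Gabrd 0.12 ± 0.11 (adjusted p = 0.897). Wild-type control replicate 1 had the highest Gabrd CPM of all libraries, 257, against 167 and 143 in its group. Het control replicate 1 had 212, against 211 and 190. The summed cortical markers were 95.1, 41 and 19.9 TPM in het control mice and 49.9, 157 and 37.8 TPM in wild-type control mice, so these overlapped. The thalamus sums did not overlap, with 27.7 to 36.6 TPM in het control mice and 46.8 to 142 TPM in wild-type control mice. Of the 8 thalamus markers, 8 had negative log2 fold changes by edgeR, 4 at an unadjusted p under 0.05 (median -0.94). The log2 fold changes of 10 of 10 oligodendrocyte markers were negative (median -0.29, 1 at an unadjusted p under 0.05), and those of 12 of 12 spiny neuron markers were positive (median 0.23, 0 at an unadjusted p under 0.05). None of these markers was called. The part of these markers in the subunit values was not tested.

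The genes Gabra2, Gabrb1 and Gabrb2 varied together from mouse to mouse. Over the 12 libraries, Pearson's r of log2 CPM was 0.94 for Gabra2 and Gabrb1, 0.87 for Gabrb1 and Gabrb2, and 0.86 for Gabra2 and Gabrb2, with Spearman's rho of 0.86, 0.82 and 0.88. After the 2 libraries farthest from the median were left out, r was 0.79, 0.88 and 0.86. Gabrd ran against them, with r of -0.80 with Gabra2, -0.80 with Gabrb1 and -0.87 with Gabrb2. Without the 2 farthest libraries these were -0.52, -0.55 and -0.86. Gabra3 and Gabra5 formed another pair, with r of 0.71, or 0.44 without the 2 farthest libraries. Gabra4 and Gabrd, whose products assemble together, had r of 0.57, or 0.29 without the 2 farthest. The points share library, depth and composition, so these values are a description.

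**Figure D3:**
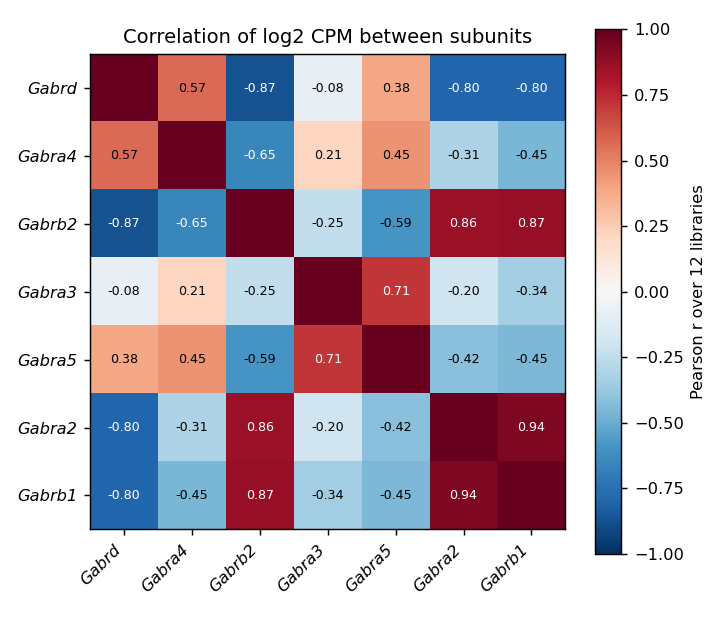
Pearson's r of log2 CPM (TMM-scaled) over the 12 libraries for each pair of subunit genes, from -1 (blue) to 1 (red). Gabra2, Gabrb1 and Gabrb2 form a block of values of 0.86 to 0.94, and Gabrd has values of -0.80 to -0.87 with them.

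The same genes followed the length slope of the libraries. Gabrb2 had r of 0.96 with it, Gabrb1 0.92 and Gabra2 0.90, and without the 2 libraries of most extreme slope r was 0.90, 0.83 and 0.88. Gabrd had -0.78, Gabra5 -0.68, Gabra4 -0.57 and Gabra3 -0.43, and without the same 2 libraries -0.66, -0.63, -0.34 and -0.28. In the files, from the highest r to the lowest, the mean lengths are 7037 nt for Gabrb2, 3089 nt for Gabrb1 and 2392 nt for Gabra2. They are 3615 nt for Gabra3, 4123 nt for Gabra4, 2653 nt for Gabra5 and 1934 nt for Gabrd. The longest gene thus had the highest r and the shortest the lowest. The genes between did not follow length, with 0.90 for the short Gabra2 and -0.57 for the longer Gabra4. When the length slope entered the edgeR model as a covariate, the SE of the genotype average was 0.059 in place of 0.22 for Gabrb2, 0.097 in place of 0.26 for Gabrb1, 0.084 in place of 0.22 for Gabra2 and 0.17 in place of 0.20 for Gabra3. No subunit was called in any comparison by that fit. For stressed over control mice its log2 fold changes were smaller than without the covariate for the genes that rise with the slope, with 0.15 ± 0.086 for Gabra2, 0.12 ± 0.099 for Gabrb1 and 0.043 ± 0.060 for Gabrb2. They were larger for Gabra5, with 0.44 ± 0.13 (edgeR, adjusted p = 0.511), and Gabra3, with 0.19 ± 0.17, and nearer 0 for Gabra4 (-0.0042 ± 0.069) and Gabrd (-0.012 ± 0.081). For het over wild-type mice the same fit gave 0.15 for Gabra4, 0.10 for Gabrd, 0.095 for Gabra2, 0.048 for Gabra5, -0.0037 for Gabrb1, -0.067 for Gabra3 and -0.076 for Gabrb2.

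**Figure D4:**
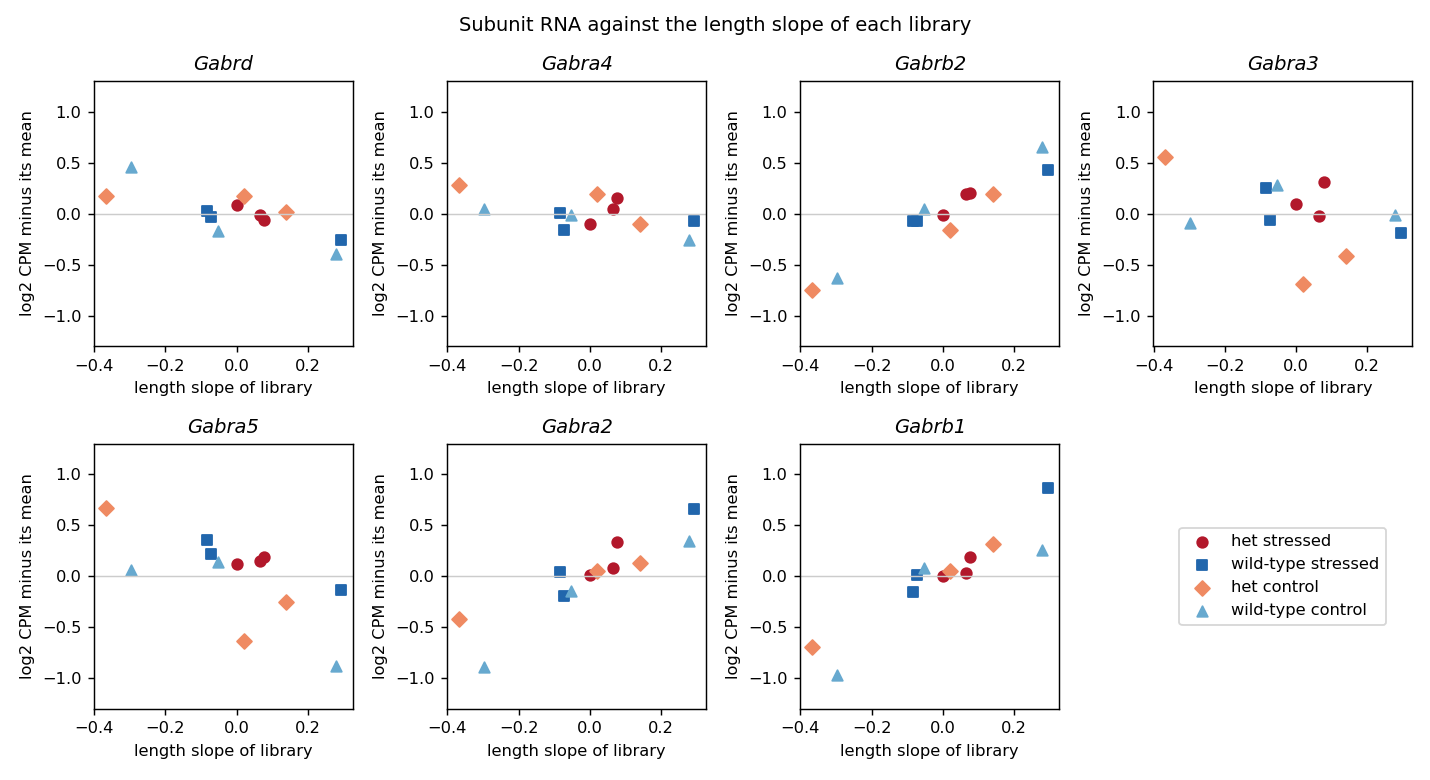
Log2 CPM of each subunit gene less its mean over the 12 libraries (y axis) against the length slope of the library (x axis, change in log2 CPM per doubling of gene length). Points are libraries, with color and shape giving the group. Gabrb2, Gabrb1 and Gabra2 lie along a rising line and Gabrd along a falling one, and the libraries at both ends come from 3 groups, with the het stressed mice between 0.0004 and 0.077.

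Some subunit genes also varied with markers of other regions. Gabra3 and Gabra5 followed the markers of cortical excitatory neurons, with r of 0.68 and 0.64 between log2 CPM and the summed markers over 12 libraries (rho of 0.63 and 0.62, and r of 0.60 and 0.74 without the 2 farthest). For the other 5 genes r lay between -0.34 and 0.21. With the summed thalamus markers, Gabra5 had r of -0.66 and Gabra4 -0.62 (rho of -0.53 and -0.52, and r of -0.29 and -0.48 without the 2 farthest), and for the other 5 genes r lay between -0.43 and 0.47. The summed cortical markers were 125 to 171 TPM in het stressed mice, 22.9 to 158 TPM in wild-type stressed mice, 19.9 to 95.1 TPM in het control mice and 37.8 to 157 TPM in wild-type control mice. The cortical sums thus move with prenatal stress in het mice without overlap, as did TPM of Gabra3 and Gabra5. Their part in those values was not tested.

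The start regions of the genes that varied together are shown because these genes moved in step between libraries. RefSeq windows on GRCm38.p6 were found for 6 of the 7 genes, and the 250 bases before the start are printed for Gabra2, for the second of the 2 starts of Gabrb1 and for the first of the 3 starts of Gabrb2, read along the gene's strand. Capitals mark matches on either strand to any of 4 motifs. The Sp1 box was searched as GGGCGG. The Egr box was searched as GCGNGGGCG, where N is any base. The TATA box was searched as TATAAA. The cyclic AMP response element was searched as TGACGTCA.
Gabra2, chr5:71095850-71096099, minus strand: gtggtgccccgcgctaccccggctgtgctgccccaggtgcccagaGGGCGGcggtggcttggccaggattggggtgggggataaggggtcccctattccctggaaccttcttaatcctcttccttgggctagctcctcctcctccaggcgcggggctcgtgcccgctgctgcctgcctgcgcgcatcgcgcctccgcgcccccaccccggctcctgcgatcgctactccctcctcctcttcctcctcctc
Gabrb1, chr5:71699682-71699931, plus strand: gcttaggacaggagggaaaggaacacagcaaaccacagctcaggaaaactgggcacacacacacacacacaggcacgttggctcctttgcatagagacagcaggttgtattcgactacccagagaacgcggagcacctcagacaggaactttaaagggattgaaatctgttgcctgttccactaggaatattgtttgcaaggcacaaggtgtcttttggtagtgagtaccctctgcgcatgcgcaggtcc
Gabrb2, chr11:42420190-42420439, plus strand: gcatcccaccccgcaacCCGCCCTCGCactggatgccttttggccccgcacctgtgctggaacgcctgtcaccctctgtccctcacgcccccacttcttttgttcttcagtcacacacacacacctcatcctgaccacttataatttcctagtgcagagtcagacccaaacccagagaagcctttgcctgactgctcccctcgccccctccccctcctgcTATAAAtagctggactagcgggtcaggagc
The Gabra2 window held 1 Sp1 box and no other of these motifs, and the Gabrb1 window held none. The Gabrb2 window held 1 Sp1 box that overlaps 1 Egr box and, separately, 1 TATA box. Of all 32851 windows of the same length, 32.7% held an Sp1 box, 4.70% an Egr box, 12.4% a TATA box and 1.55% a cyclic AMP response element. CpG dinucleotides numbered 18 in the Gabra2 window, 6 in that of Gabrb1 and 8 in that of Gabrb2, with a median of 6 over all windows. The count depends on the start taken. The window of the first Gabrb1 start, which lies within the stretch transcribed from the Gabra4 start on the other strand and is not printed, held 18 CpG, as many as that of Gabra2, and none of the motifs. Those of the other 2 Gabrb2 starts held 8 and 4 CpG and none of the motifs. No motif searched for was shared by the 3 windows printed.

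Genes that lie side by side did not necessarily vary alike. Gabra2, Gabra4 and Gabrb1 lie on chromosome 5, and Gabra4 and Gabrb1 are direct neighbours, yet the r of Gabra4 and Gabrb1 was -0.45. Their rho was -0.39, and r was -0.21 without the 2 farthest libraries. Gabra2 lies next to Gabrg1, Gabra5 next to Gabrg3 on chromosome 7, Gabra3 next to Gabrq, and Gabrb2 next to Gabra6 on chromosome 11. Gabra4 and the first of the Gabrb1 starts in RefSeq lie on opposite strands and overlap over 388 bases. The sources used here do not say whether reads were counted by strand, so reads from that stretch cannot be told apart.

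The make-up of the summed subunit RNA overlapped between groups. The share of Gabrd in the summed TPM of the 7 genes was 41.4 to 47.2% in het stressed mice, 39.6 to 46.2% in wild-type stressed mice, 45.2 to 49.7% in het control mice and 39.6 to 56.0% in wild-type control mice. That of Gabra4 stayed between 24.4 and 29.1% over all 12 libraries. Gabrb2 ranged from 3.92 to 13.9%, Gabra2 from 2.03 to 6.90% and Gabrb1 from 0.865 to 3.59%, and none of these extremes came from het stressed mice. All groups overlapped in the share of Gabrd with every other group.

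**Figure D5:**
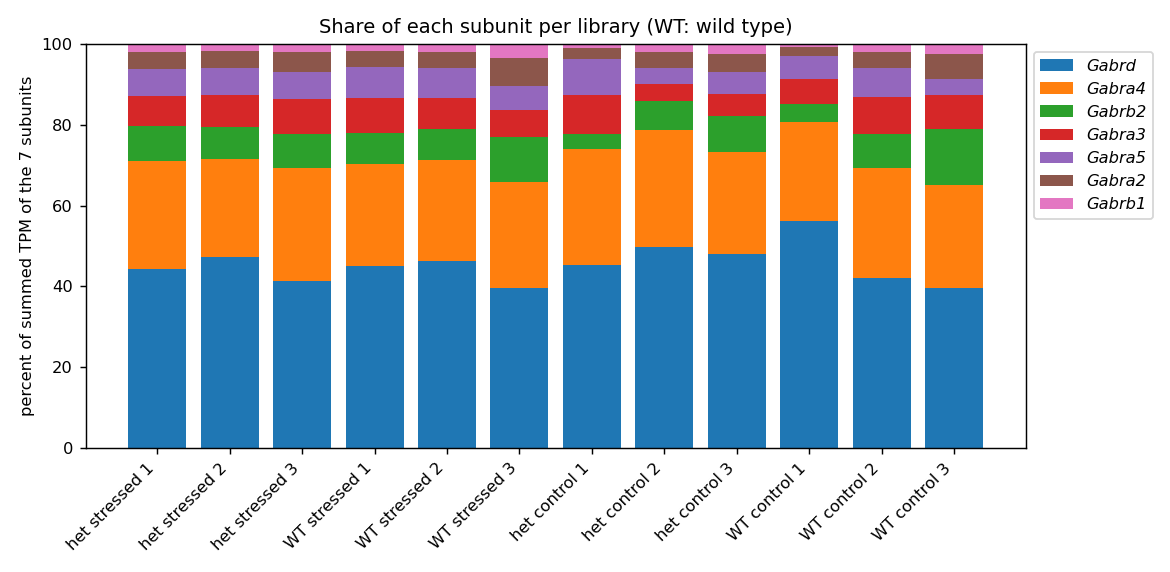
Share of each subunit gene (stacked bars, percent of the summed TPM of the 7 genes, y axis) in each of the 12 libraries. Gabrd and Gabra4 together fill most of every bar, and the Gabrb2 share runs from 3.92% in het control replicate 1 to 13.9% in wild-type control replicate 3.

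Transcripts were estimated by RSEM, and for most of these genes 1 transcript carried nearly all of the signal. Gabra2, Gabra5 and Gabrb1 have 1 annotated transcript in the files, and Gabra4 had 100% of its TPM in 1 of 2. Gabrd had 83.2 to 91.6% in a transcript of 1921 nt. Gabrb2 was split between a transcript of 7665 nt and one of 3989 nt. The long one held 84.6, 78.5 and 83.6% of Gabrb2 TPM in het stressed mice, 71.2, 83.7 and 79.7% in wild-type stressed mice, 94.4, 77.6 and 87.4% in het control mice, and 92.9, 81.9 and 87.7% in wild-type control mice. The highest shares belonged to the libraries of lowest length slope, and the groups overlapped. A short Gabra3 transcript of 589 nt held 2.18 to 3.84% in het stressed mice, 0 to 5.53% in wild-type stressed mice, 0 to 0.59% in het control mice and 0 to 1.21% in wild-type control mice. It rested on at most 7.59 expected counts in a library, so no order is read from it.

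The genes whose log2 CPM was most like that of each subunit over the 12 libraries were, as a description, an unnamed gene (ENSMUSG00000070889.4, r = 0.997) and Atp6v0a2 (0.98) for Gabra2, Arhgef7 (0.98) and Atf2 (0.98) for Gabrb1, and Zfp804a (0.99) and Zdhhc17 (0.99) for Gabrb2. For Gabra3 they were Ak5 (0.98) and Cnih3 (0.93), and for Gabra5 Ifit1bl1 (0.97) and Fxyd6 (0.96). For Gabra4 they were Hnrnpll (0.94) and B230219D22Rik (0.93), and for Gabrd Eif4a3 (0.96) and Spsb3 (0.96). These were picked for the highest r among the tested genes outside the lists, so high values follow from the choice. Spearman's rho ran from 0.80 (Fxyd6) to 1 (the unnamed gene). Without the 2 farthest libraries r ran from 0.83 (B230219D22Rik) to 0.99 (the unnamed gene).

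No other gene of the GABA pathway lists was called by edgeR either. Over all genes tested, at most 0.00627% were called in a comparison and 0.57 to 2.49% had an unadjusted p under 0.05. The counts in this and the next paragraph are therefore near those shares and say little about these lists. Of 12 further GABA-A subunit genes, 8 were tested and 0 were called higher or lower in any comparison, with 1 at an unadjusted p under 0.05, in the interaction. Gabra6, Gabrp, Gabrr1 and Gabrr3 were too low to test. The smallest p-values of the list for het over wild-type mice were those of Gabrr2 (-0.25 ± 0.21) and Gabrg1 (0.15 ± 0.24). Gabrq (0.57 ± 0.63) was among those with the smallest p for stressed over control mice.

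Of 15 genes of the inhibitory postsynapse and of receptor trafficking, 15 were tested and 0 were called in either direction in any comparison, with 0 at an unadjusted p under 0.05. The 2 with the smallest p were Clptm1, which holds GABA-A receptors back in the endoplasmic reticulum (0.069 ± 0.087), and Plcl1 (-0.19 ± 0.26) for genotype, and the receptor-binding Gabarap (-0.24 ± 0.19) and its relative Gabarapl2 (-0.35 ± 0.28) for stress. Of 8 genes of GABA synthesis, transport and breakdown, 8 were tested and 0 called, with 0 at an unadjusted p under 0.05. The GABA transporter gene Slc6a11 (-0.19 ± 0.26) had the smallest p for genotype. Abat, which encodes GABA transaminase (0.20 ± 0.18), and the transporter gene Slc6a13 (-0.17 ± 0.20) had them for stress. Of 9 genes of GABA-B receptors and chloride transport, 8 were tested and 0 called, with 1 at an unadjusted p under 0.05, Stk39 for stress in wild-type mice. Gabbr2, a GABA-B receptor subunit (-0.30 ± 0.22), and Kctd8 (0.14 ± 0.12) had the smallest p for genotype, and the kinase gene Stk39 (-0.15 ± 0.076) and Kctd16 (0.36 ± 0.26) for stress, all as log2 fold changes. The median log2 fold change for stress was 0.050, 0.10, 0.086 and 0.12 in the 4 lists in the order given, against -0.0005 over all genes.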

How the data were processed

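RNA of 12 striatum samples was sequenced from randomly primed cDNA, per the labels. The authors deposited, for each library, expected counts, TPM and FPKM per gene and the percent of a gene's TPM per transcript, per the file headers. RSEM and Bowtie against mm9 are named in the submitters' processing notes; the sources used here give no version of either for RNA. The members were found by name, but the names and the gene lists were chosen with earlier results of these data known.

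Expected counts were rounded and low genes removed by filterByExpr. After TMM scaling, edgeR 4.0.16 (quasi-likelihood, robust; R 4.3.3) was run over 12 libraries with 4 group means. P-values were adjusted over 15955 genes. SEs are the log2 fold change over the square root of F. DESeq2 1.42.0 and limma 3.58.1 served as alternatives, limma on log2(TPM + 1). Fold changes are given for all members in the averages and in control mice, and otherwise for the highest and lowest. Scripts were tested on simulated data. Each library was taken as 1 mouse. Between replicates the chi-square per gene was 8.85 to 219, above sampling noise, which does not by itself show that the libraries are separate mice. The tables of 5hmC were not used here. Values of some other genes of the lists are not reported here.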

Additional observations from a re-analysis of the deposited data

How the results depend on the processing

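Over 181 recounts of the subunits called per comparison, 2 differed from 0, both for het over wild-type control mice: limma-voom with sample weights gave 2 and the length slope as covariate with replicate 1 of both control groups left out gave 1. DESeq2, DESeq2 size factors in edgeR, the other fits and each of the 12 fits without a library called 0. The ranks by mean level kept their place under FPKM and without any library. Of 463 fold changes recomputed, 43 changed sign, and the cause was not tested. With the length slope as covariate, Gabrd was 0.091 for het stressed over wild-type control and 0.00037 for wild-type stressed over control. With 2 libraries also left out it was 0.24 and 0.16, and 0.018 for stress averaged, with Gabra4 at 0.011 for stress, Gabra5 at -0.064 for genotype and -0.13 in control mice, and Gabrg1 at -0.040 for genotype. With limma-voom, Gabrb1 was 0.019 for the interaction, 0.061 for het over wild type under stress, -0.048 for stress, 0.051 for genotype and -0.058 for stress in wild type. By the same fit Gabrb2 was 0.0054 and Gabra5 -0.36 for genotype, Gabra5 -0.60 in control mice, and Gabrd 0.17 for het stressed over wild-type control, 0.14 for stress in wild type and 0.011 for stress. It also gave -0.23 for Gabrg1 and 0.11 for Plcl1 for genotype, and 0.23 for Slc6a13 for stress. On log2(TPM + 1), with or without a filter, Gabrd was 0.061 and Gabra4 0.10 for stress, Gabrd 0.13 for stress in het mice and 0.20 for het stressed over wild-type control, Slc6a13 0.028 and Stk39 0.0053 for stress. On log2(TPM + 0.1) these were 0.061, 0.10, 0.13, 0.20, 0.053 and 0.0059. Without a filter on counts Gabrd was 0.014 for het stressed over wild-type control.

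Leaving out 1 library at a time changed a sign for 22 fold changes and called none. For genotype averaged, the ranges were -0.12 to 0.17 for Gabra2, -0.25 to 0.097 for Gabra3, -0.15 to 0.21 for Gabra5, -0.23 to 0.10 for Gabrb1, -0.28 to 0.033 for Gabrb2, -0.14 to 0.28 for Gabrg1, 0.0078 to 0.24 for Gabrd, -0.33 to 0.026 for Plcl1 and -0.42 to 0.025 for Slc6a11. For stress averaged, they were -0.049 to 0.31 for Gabra3, -0.20 to 0.040 for Gabrd and -0.022 to 0.89 for Gabrq. In control mice by genotype, they were -0.18 to 0.41 for Gabra2, -0.62 to 0.085 for Gabra3, -0.28 to 0.44 for Gabra5, -0.22 to 0.31 for Gabrb1, -0.57 to 0.059 for Gabrb2 and -0.057 to 0.40 for Gabrd. For Gabrb1 the range was -0.43 to 0.13 between stressed het and wild-type mice and -0.56 to 0.059 for the interaction. For Gabrb2 the interaction ran from -0.053 to 0.59. Gabrd ran from -0.19 to 0.28 for het stressed over wild-type control and from -0.26 to 0.20 for stress in wild type.

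With the replicate number as a block, 0 subunits were called in any comparison, and Gabrd was 0.027 for het stressed over wild-type control. In their deviations from group means, same-numbered libraries correlated at -0.26 to 0.67 (median 0.086, 18 pairs). Differently numbered libraries of different groups correlated at -0.74 to 0.42 (median -0.095, 36 pairs). In each group replicate 3 had the highest length slope. Whether the numbers mark a shared batch was not tested. The lowest count of a subunit gene in a library was 117 (Gabrb1).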
